A study of Mus musculus with 8 samples.

Results

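Motile cilia beat, and the machine that makes them beat is the axoneme, a ring of doublet microtubules around a central pair. The 33 protein-coding genes described here were taken from the count table by name: every gene whose symbol starts with Dnah, Dnai, Dnal, Rsph or Tekt, together with Foxj1, Ccdc39 and Ccdc40. They are 33 of 37417 rows of the table, of which 21064 are protein-coding, and the rule uses names only. Dynein genes carry the symbols of the table here, with Dnahc5 for the heavy chain gene Dnah5, Dnaic1 for the intermediate chain gene Dnai1 and Dnalc1 for the light chain gene Dnal1.

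RNA came from epididymal fat of 4 knockout (KO) and 4 wild-type (WT) male C57Bl/6 mice on a chow diet. KO mice carried floxed Atg3, which encodes an enzyme that lipidates LC3 in autophagy, and Adiponectin-Cre ERT2, a recombinase that the adiponectin promoter drives in adipocytes and that tamoxifen switches on. Mice of both genotypes received tamoxifen, so the drug is shared. The labels do not say whether WT mice carried the Cre or the floxed alleles, or how old the mice were.

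Dynein arms are the motors that slide neighbouring doublets, with outer arms setting the power of the beat and inner arms its shape. Radial spokes pass signals from the central pair to the arms, the coiled-coil pair CCDC39 and CCDC40 sets the spacing at which inner arms and spokes attach, and tektins are filaments inside the doublet wall. FOXJ1 is the forkhead transcription factor that switches on this programme in multiciliated cells. Adipocytes carry no motile cilia. In the male tract, multiciliated cells line the efferent ducts, which join the testis to the head of the epididymis, next to the fat depot sampled here, and sperm flagella share most axonemal parts.

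Libraries held 12952190, 13459675, 14014040 and 21688464 counted reads in KO mice 1 to 4, against 10986375, 17128811, 13021878 and 15480022 in WT mice 1 to 4. Atg3 was at 27.8 to 32.2 CPM (read counts scaled to library size by the TMM method) in KO libraries and 44.5 to 53.6 CPM in WT libraries, a log2 fold change of -0.73 with an adjusted p of 0.0168 in edgeR's quasi-likelihood test. The 10 adipocyte markers, Fabp4 and Adipoq among them, summed to 28268 to 33216 CPM in KO and 34509 to 42329 CPM in WT libraries. KO libraries 2 and 3 stood apart from the other 6 in the genes of this report, and the fold changes and tests that rest on them are also given without them.

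Summed over the 33 axoneme genes, the level was 69.6, 512, 557 and 90.2 CPM in KO libraries 1 to 4, against 87.2, 71.4, 73.3 and 73.4 CPM in WT libraries 1 to 4. KO 2 and KO 3 were far above all others, KO 4 was just above the highest WT library, and KO 1 was below the lowest. KO 2 exceeded all 4 WT libraries in 28 of the 33 genes (84.8%), where 25.9% of all genes with a read did so. KO 3 did so in 29 genes (87.9%), against 26.1% of all genes. For KO 4 the count was 15 (45.5%), against 21.6%, and for KO 1 it was 8 (24.2%), against 17.6%. These 4 counts share the same WT libraries.

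**Figure D1:**
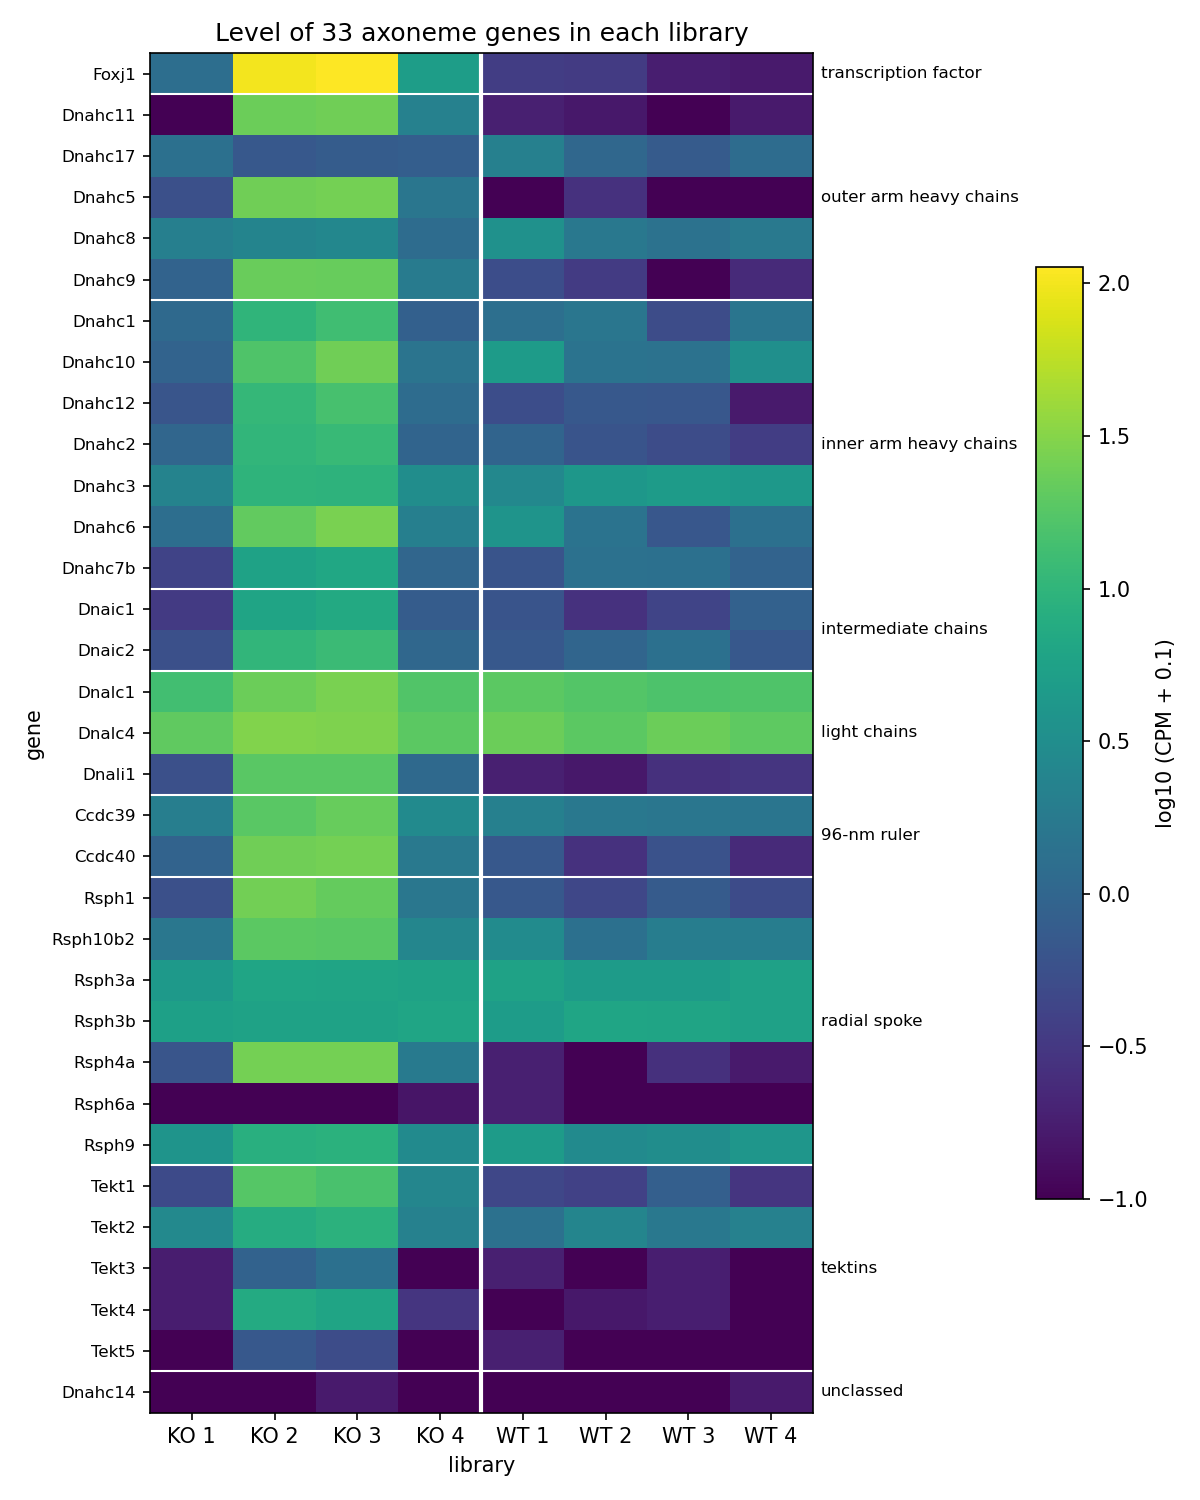
Level of each of the 33 axoneme genes (rows, grouped by place in the axoneme) in each library (columns, KO left of WT), as log10 of CPM plus 0.1, with brighter colours for higher levels. KO 2 and KO 3 are bright through most rows, Dnalc1, Dnalc4, Rsph3a and Rsph3b are nearly even across all 8 libraries, and Rsph6a and Dnahc14 are dark throughout.

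Foxj1 had 1.15, 100.3, 114 and 4.95 CPM in KO libraries 1 to 4, against 0.258, 0.235, 0.0820 and 0.0655 CPM in WT libraries 1 to 4. In reads, that was 15, 1354, 1667 and 103 in KO and 3, 4, 1 and 1 in WT. Every KO library lay above every WT library, but the KO libraries themselves spanned 1.15 to 114 CPM, so that KO averaged 55.0 ± 60.2 CPM and WT 0.16 ± 0.10 CPM (SD, n = 4 each). The log2 fold change was 8.35 (SE 1.76), with an adjusted p of 0.0908 in edgeR's quasi-likelihood test over all 14800 genes tested, above the threshold of 0.05. DESeq2, which estimates the spread between mice differently, gave an adjusted p of 3.16e-07. Without KO 2 and KO 3 the log2 fold change was 4.22, with an adjusted p of 0.109 in edgeR and 0.000739 in DESeq2. Per kilobase, Foxj1 was the most abundant of the 33 in KO 2 and KO 3, at 38.4 and 45.3 FPKM, and it made up 19.6% and 20.4% of their summed CPM.

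**Figure D2:**
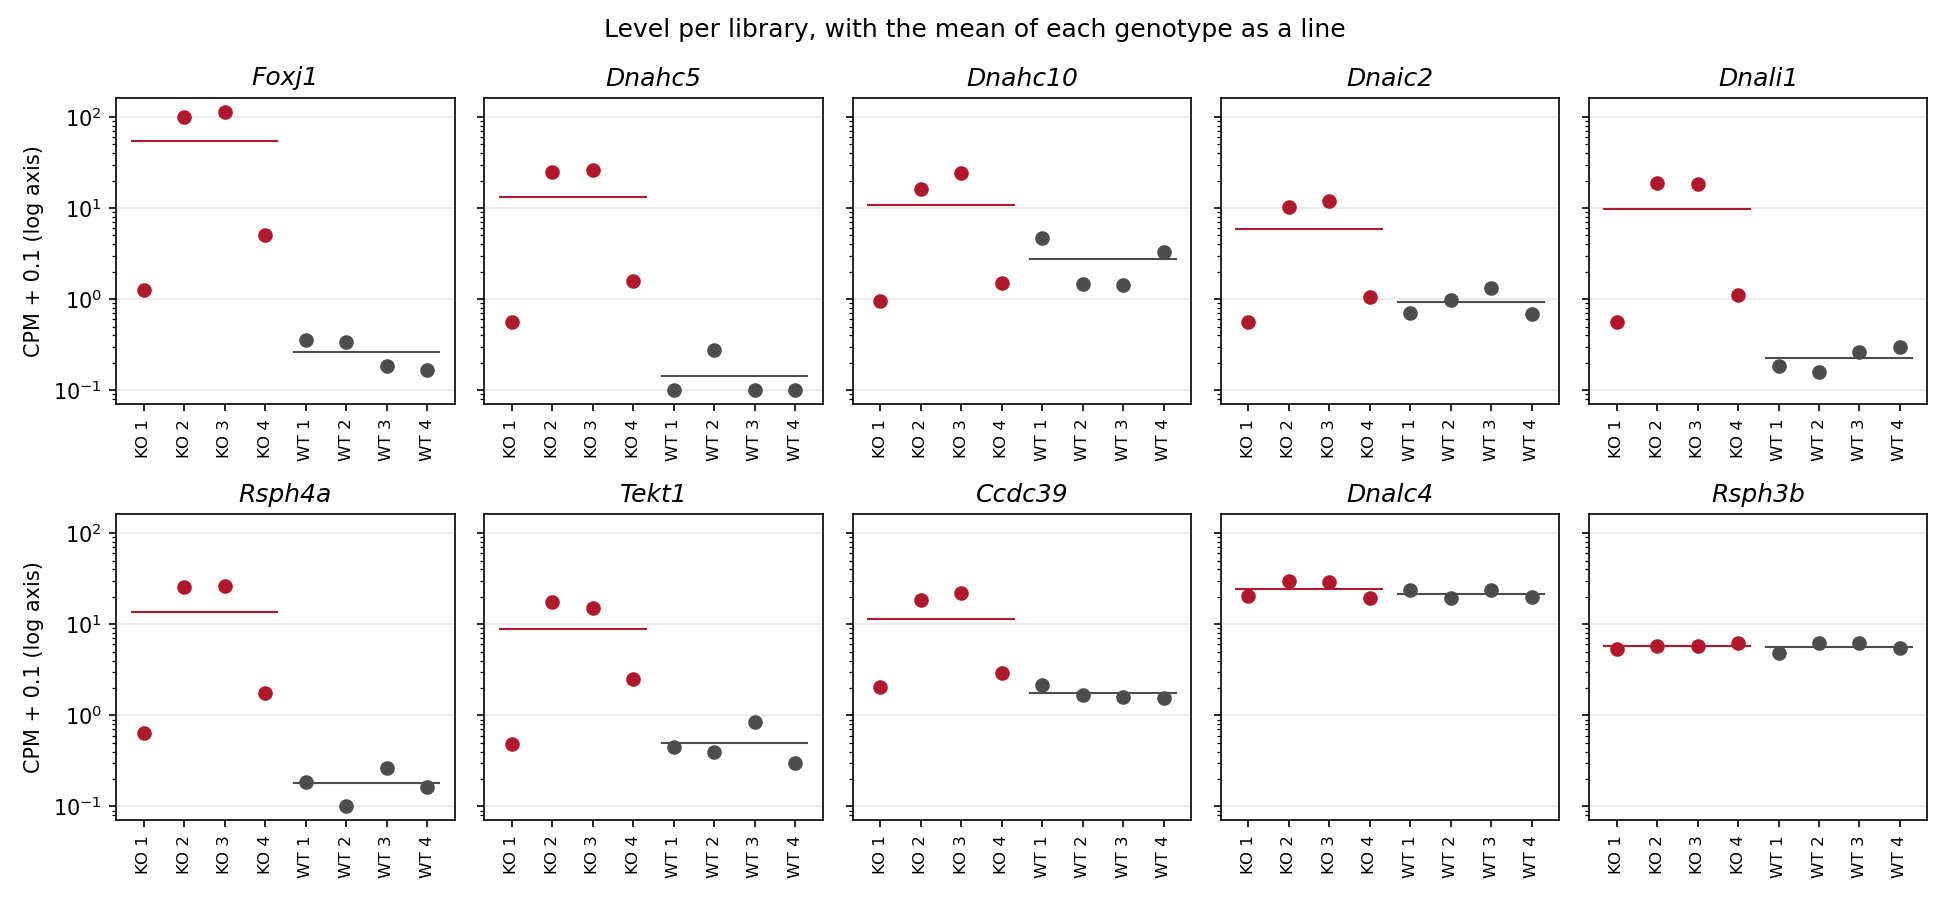
CPM plus 0.1 on a log axis in each library for 10 of the genes, KO (red) left of WT (grey), with each genotype's mean as a line. In 8 panels KO 2 and KO 3 sit highest with KO 4 and KO 1 well below them. Dnalc4, with KO 2 and KO 3 slightly highest, and Rsph3b vary little across libraries.

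Regulatory factor X proteins, which act with FOXJ1 on cilium genes, bind X-box motifs. Promoter windows of 250 bases before to 50 after the start site, from RefSeq on GRCm38.p6 (the assembly also called mm10), were found for 28 of the 33 genes. The X-box core GTTGCC, read on both strands, was in the windows of 7 of the 28 (25.0%), against 14.1% of all 27025 genes with a window. The spaced form (GTNNCC, then any 2 bases, then GGNNAC) was in 2 (7.14%), Rsph9 and Tekt4, against 2.16% of all genes, the forkhead core GTAAACA in 2 (7.14%), Dnahc17 and Tekt3, against 4.05%, and TATAAA in 1 (3.57%), Dnahc12, against 15.7%. These shares describe letters in a window and not bound sites. The windows below are shown because they hold cores near the start of genes that were higher in KO 2 and KO 3 than in any WT library, and all but Tekt1 were chosen after values and matches were seen. Capitals mark GTTGCC or its reverse complement, and in Tekt4 also the spaced form. Tekt1 is chr11:72361833-72362132 (minus strand), Tekt2 chr4:126325639-126325938 (minus), Tekt4 chr17:25471340-25471639 (plus) and Dnaic2 chr11:114727169-114727468 (plus).
Tekt1: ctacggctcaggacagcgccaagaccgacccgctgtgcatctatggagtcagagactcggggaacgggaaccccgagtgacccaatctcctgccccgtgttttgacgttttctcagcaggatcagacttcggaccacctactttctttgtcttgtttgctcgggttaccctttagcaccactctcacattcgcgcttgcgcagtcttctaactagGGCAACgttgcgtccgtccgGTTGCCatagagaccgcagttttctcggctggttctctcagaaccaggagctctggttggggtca
Tekt2: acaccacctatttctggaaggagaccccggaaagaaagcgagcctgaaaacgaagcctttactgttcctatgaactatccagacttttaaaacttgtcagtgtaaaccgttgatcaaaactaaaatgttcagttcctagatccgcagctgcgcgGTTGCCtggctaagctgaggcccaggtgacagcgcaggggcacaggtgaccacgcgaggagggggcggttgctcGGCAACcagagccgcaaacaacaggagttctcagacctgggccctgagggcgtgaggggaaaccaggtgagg
Tekt4: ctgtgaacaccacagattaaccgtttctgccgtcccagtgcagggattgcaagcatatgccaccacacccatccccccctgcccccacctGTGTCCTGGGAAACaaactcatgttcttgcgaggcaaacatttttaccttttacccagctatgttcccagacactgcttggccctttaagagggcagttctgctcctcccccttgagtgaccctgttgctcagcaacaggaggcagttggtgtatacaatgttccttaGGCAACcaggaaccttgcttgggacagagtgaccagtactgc
Dnaic2: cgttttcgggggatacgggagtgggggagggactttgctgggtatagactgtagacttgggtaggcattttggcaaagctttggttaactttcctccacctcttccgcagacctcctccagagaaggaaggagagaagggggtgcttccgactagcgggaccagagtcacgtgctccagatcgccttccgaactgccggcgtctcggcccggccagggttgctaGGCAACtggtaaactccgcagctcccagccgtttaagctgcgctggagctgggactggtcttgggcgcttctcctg

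RefSeq gives 2 windows for Tekt1 and 3 for Tekt2. Counted from the first transcribed base of the windows printed, the cores began at positions -35 and -15 in Tekt1, -96 and -22 in Tekt2, 8 in Tekt4 and -26 in Dnaic2, and the spaced form in Tekt4 began at -160. The other Tekt1 window and 1 of the other Tekt2 windows held no core, and the remaining Tekt2 start put the same cores at -138 and -64. Dnahc10, Dnahc7b and Rsph3b held the other cores. Rsph3b, described with the radial spokes, holds a core although its levels in KO 2 and KO 3 lay inside the WT range.

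Outer arm heavy chains are the force-producing ATPases of the outer row. Dnahc5 had 0.462, 24.9, 25.7 and 1.49 CPM in KO libraries 1 to 4, against 0, 0.176, 0 and 0 CPM in WT libraries 1 to 4. In reads, that was 751 over the KO libraries and 3 over the WT libraries, a ratio of 227 after scaling to library size, with an exact 95% counting interval of 77.2 to 1101. Every KO library was above every WT library, KO 1 with 6 reads in all and WT 2 with 3, and 0 reads allow up to 0.258 CPM in WT 1. Intervals of this kind cover counting error only and not the spread between mice, and the pooled reads come mostly from KO 2 and KO 3.

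Dnahc11, which sits near the base of airway cilia in humans, had 0, 23.2, 24.7 and 2.11 CPM in KO libraries, against 0.0860, 0.0588, 0 and 0.0655 CPM in WT libraries. It held 719 reads in KO and 3 in WT, a scaled ratio of 217 (73.9 to 1054), yet no read in KO 1, where 0 reads allow up to 0.231 CPM. Dnahc9, its counterpart towards the tip, had 0.846, 22.4, 22.3 and 1.78 CPM in KO, against 0.430, 0.235, 0 and 0.131 CPM in WT. All KO libraries were above all WT libraries for Dnahc9, with a log2 fold change of 5.85 (SE 1.27, adjusted p 0.0988, edgeR). DESeq2 gave adjusted p values of 0.000619 for Dnahc5, 0.00104 for Dnahc11 and 0.000339 for Dnahc9. None of the 3 passed in DESeq2 without KO 2 and KO 3, with adjusted p values of 0.190, 0.322 and 0.208, and Dnahc9 had an adjusted p of 0.317 in edgeR.

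The other pair of outer arm heavy chains are known mainly from sperm flagella. Dnahc8 had 2.0, 2.30, 2.52 and 1.11 CPM in KO libraries, against 3.44, 1.59, 1.31 and 1.64 CPM in WT libraries. Dnahc17 had 1.23, 0.593, 0.681 and 0.721 CPM in KO, against 2.06, 0.940, 0.656 and 1.11 CPM in WT. For both genes the genotypes overlapped and WT 1 was the highest of all 8 libraries. Their log2 fold changes were -0.01 (SE 0.38) and -0.56 (SE 0.40), with adjusted p values of 0.992 and 0.539 in edgeR.

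The 7 inner arm heavy chains summed to 0.545, 6.42, 8.55 and 0.754 FPKM in KO libraries, against 1.11, 0.831, 0.682 and 0.857 FPKM in WT libraries, with KO 1 below the lowest WT library. Dnahc6, of the single-headed class, had 1.15, 20.9, 27.2 and 1.97 CPM in KO libraries 1 to 4, against 3.698, 1.35, 0.574 and 1.24 CPM in WT libraries 1 to 4. Dnahc10, which shares an inner arm with the product of Dnahc2, had 0.846, 16.2, 24.4 and 1.39 CPM in KO, against 4.64, 1.35, 1.31 and 3.21 CPM in WT. In both, KO 2 and KO 3 were above every WT library, and KO 1 and KO 4 were below WT 1. Dnahc3, also single-headed, had 2.23, 9.48, 9.47 and 3.03 CPM in KO, against 2.58, 4.06, 4.68 and 4.19 CPM in WT, with KO 1 below the lowest WT library.

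The log2 fold changes were 2.91 (SE 1.01) for Dnahc6, 2.03 (SE 0.98) for Dnahc10 and 0.64 (SE 0.47) for Dnahc3, with adjusted p values of 0.209, 0.352 and 0.553 in edgeR. Without KO 2 and KO 3 all 3 turned below zero, to -0.09, -1.18 and -0.54, with adjusted p values of 0.983, 0.640 and 0.678 in edgeR. The remaining inner arm genes Dnahc1, Dnahc2, Dnahc7b and Dnahc12 were at 5.63 to 10.8 CPM in KO 2 and 6.54 to 14.4 CPM in KO 3, against at most 1.47 CPM in any WT library. Of these, Dnahc2 was the only one with every KO library above every WT library, and KO 4 passed WT 1 there by 0.865 against 0.860 CPM. Dnahc7b belongs to a family of near-identical genes, so its reads may have been shared with its copies.

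Intermediate chains tether the outer arm to the doublet. Dnaic1 had 0.231, 6.00, 7.15 and 0.673 CPM in KO libraries, against 0.516, 0.176, 0.328 and 0.786 CPM in WT libraries. Dnaic2 had 0.462, 10.1, 11.8 and 0.961 CPM in KO, against 0.602, 0.882, 1.23 and 0.589 CPM in WT. For this pair KO 4 lay among the WT libraries, and KO 1 was below the lowest WT library for Dnaic2. Dnaic2 had a log2 fold change of 2.81 (SE 0.95, adjusted p 0.200, edgeR) and of -0.15 without KO 2 and KO 3 (adjusted p 0.953).

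Light chains showed separate patterns. Dnali1, an inner arm light chain, had 0.462, 18.7, 18.5 and 1.01 CPM in KO libraries 1 to 4, against 0.0860, 0.0588, 0.164 and 0.196 CPM in WT libraries 1 to 4, with every KO library above every WT library. Its 550 reads in KO and 7 in WT gave a scaled ratio of 71.1 (95% counting interval 34.3 to 178). DESeq2 gave it an adjusted p of 3.86e-06, and of 0.415 without KO 2 and KO 3. Dnalc4 had 20.5, 29.5, 28.9 and 19.3 CPM in KO, against 23.6, 19.3, 23.5 and 19.97 CPM in WT.

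Dnalc1 had 13.5, 23.1, 27.2 and 16.6 CPM in KO libraries, against 19.2, 17.3, 15.99 and 16.4 CPM in WT libraries. For Dnalc1 and Dnalc4, KO 2 and KO 3 were above every WT library, but KO 1 and KO 4 were not, so the genotypes overlapped. Their log2 fold changes were 0.22 (SE 0.21) and 0.19 (SE 0.16), with adjusted p values of 0.643 and 0.613 in edgeR. This pair made up 49.0% to 53.8% of the summed CPM of the 33 genes in WT libraries, against 10.3% in KO 2 and 10.1% in KO 3. Per kilobase, Dnalc4 was the most abundant of the 33 genes in WT libraries, at 10.7, 8.21, 9.39 and 8.42 FPKM, and it was at 8.81, 12.6, 12.96 and 7.90 FPKM in KO libraries.

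Both spacing proteins followed the common order at different baselines. Ccdc40 had 0.846, 24.3, 26.1 and 1.63 CPM in KO libraries, against 0.602, 0.176, 0.492 and 0.131 CPM in WT libraries, and all KO libraries were above all WT libraries. Ccdc39 had 1.92, 18.4, 22.1 and 2.84 CPM in KO, against 2.06, 1.59, 1.48 and 1.44 CPM in WT, with KO 1 inside the WT range. The log2 fold changes were 5.28 (SE 1.23) for Ccdc40 and 2.78 (SE 0.76) for Ccdc39, with adjusted p values of 0.110 and 0.142 in edgeR. Without KO 2 and KO 3 they were 1.91 and 0.56, with adjusted p values of 0.437 and 0.650.

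Among the radial spoke genes, Rsph1, a spoke head protein, had 0.462, 25.0, 21.4 and 1.54 CPM in KO libraries 1 to 4, against 0.602, 0.353, 0.656 and 0.393 CPM in WT libraries 1 to 4. Rsph4a, another head protein, had 0.539, 25.8, 26.3 and 1.68 CPM in KO, against 0.0860, 0, 0.164 and 0.0655 CPM in WT. Every KO library was above every WT library for Rsph4a, with 776 reads in KO and 4 in WT (scaled ratio 176, counting interval 68.3 to 646), and KO 1 was inside the WT range for Rsph1. DESeq2 gave adjusted p values of 0.00212 for Rsph1 and 4.6e-05 for Rsph4a. Neither passed in DESeq2 without KO 2 and KO 3, with adjusted p values of 0.922 and 0.0879.

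Rsph10b2 had 1.54, 19.4, 18.9 and 2.40 CPM in KO libraries, against 2.84, 1.23, 1.89 and 1.90 CPM in WT libraries, and only KO 2 and KO 3 left the WT range. Rsph9, also of the spoke head, had 3.69, 8.45, 8.78 and 2.79 CPM in KO, against 4.64, 2.82, 3.03 and 3.93 CPM in WT, with KO 4 just below the lowest WT library. Their log2 fold changes were 2.43 (SE 0.80, adjusted p 0.189) and 0.71 (SE 0.39, adjusted p 0.409) in edgeR. Leaving out KO 2 and KO 3, they were 0.042 and -0.14, with adjusted p values of 0.986 and 0.919. Rsph10b2 overlaps Pms2 on the same strand, so its reads could not be assigned to it with certainty.

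Rsph3b, a spoke stalk gene, had 5.31, 5.71, 5.65 and 6.20 CPM in KO libraries, against 4.73, 6.17, 6.07 and 5.43 CPM in WT libraries, a log2 fold change of 0.03 (SE 0.16). Its close copy Rsph3a had 4.31 to 6.22 CPM in KO and 4.64 to 5.59 CPM in WT libraries, a log2 fold change of 0.12 (SE 0.18). Genotypes overlapped for both, although KO 2, KO 3 and KO 4 were above every WT library for Rsph3a, and KO 4 for Rsph3b. Reads of these copies may have been split between them. Rsph6a, the sperm counterpart of Rsph4a, had 1 read over the KO libraries and 1 over the WT libraries, and no fold was taken.

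Tektins are grouped here as 5 genes, which summed to 1.71, 20.5, 19.8 and 2.61 FPKM in KO libraries, against 1.05, 1.45, 1.29 and 1.21 FPKM in WT libraries, with all KO libraries above all WT libraries. Tekt1 had 0.385, 17.5, 15.05 and 2.40 CPM in KO libraries 1 to 4, against 0.344, 0.294, 0.738 and 0.196 CPM in WT libraries 1 to 4. Tekt4 had 0.0770, 7.26, 5.99 and 0.192 CPM in KO, against 0, 0.0588, 0.0820 and 0 CPM in WT, with 191 reads in KO and 2 in WT (scaled ratio 86.4, counting interval 23.6 to 719), of which KO 1 held 1 read and KO 4 held 4. Tekt2 had 2.62, 7.78, 9.13 and 2.11 CPM in KO, against 1.29, 2.35, 1.56 and 2.10 CPM in WT. KO 1 lay inside the WT range for Tekt1 and Tekt4 and above it for Tekt2, whereas KO 4 was above WT for Tekt1 and Tekt4 and inside the range for Tekt2.

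Tekt2 had a log2 fold change of 1.55 (SE 0.49, adjusted p 0.180, edgeR), and 0.37 without KO 2 and KO 3 (adjusted p 0.785). Tekt3 and Tekt5, known mainly from sperm, held 1, 11, 18 and 0 reads and 0, 8, 6 and 0 reads in KO libraries, against 1, 0, 1 and 0 reads and 1, 0, 0 and 0 reads in WT libraries. Dnahc14, whose place in the axoneme is not assigned here, had 1 read in KO and 1 in WT libraries.

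KO 2 reached at least 100 times the WT mean in 7 genes, at least 10 times in 18 and at least 2 times in 25. The share of all genes at these folds was not computed. In the 7, the WT libraries together held only 2 (Tekt4) to 11 (Dnahc9) reads a gene.

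KO 3 was above KO 2 in 21 of the 33 genes, and the share of all genes that did so was not computed. Over the 33 genes, the Spearman correlation of FPKM between KO 2 and KO 3 was 0.99, as a description across genes that share each library. In 13 of the 33 genes KO 2 and KO 3 were above KO 4, KO 4 above KO 1 and KO 4 above every WT library, an order that 3.85% of all genes showed.

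**Figure D3:**
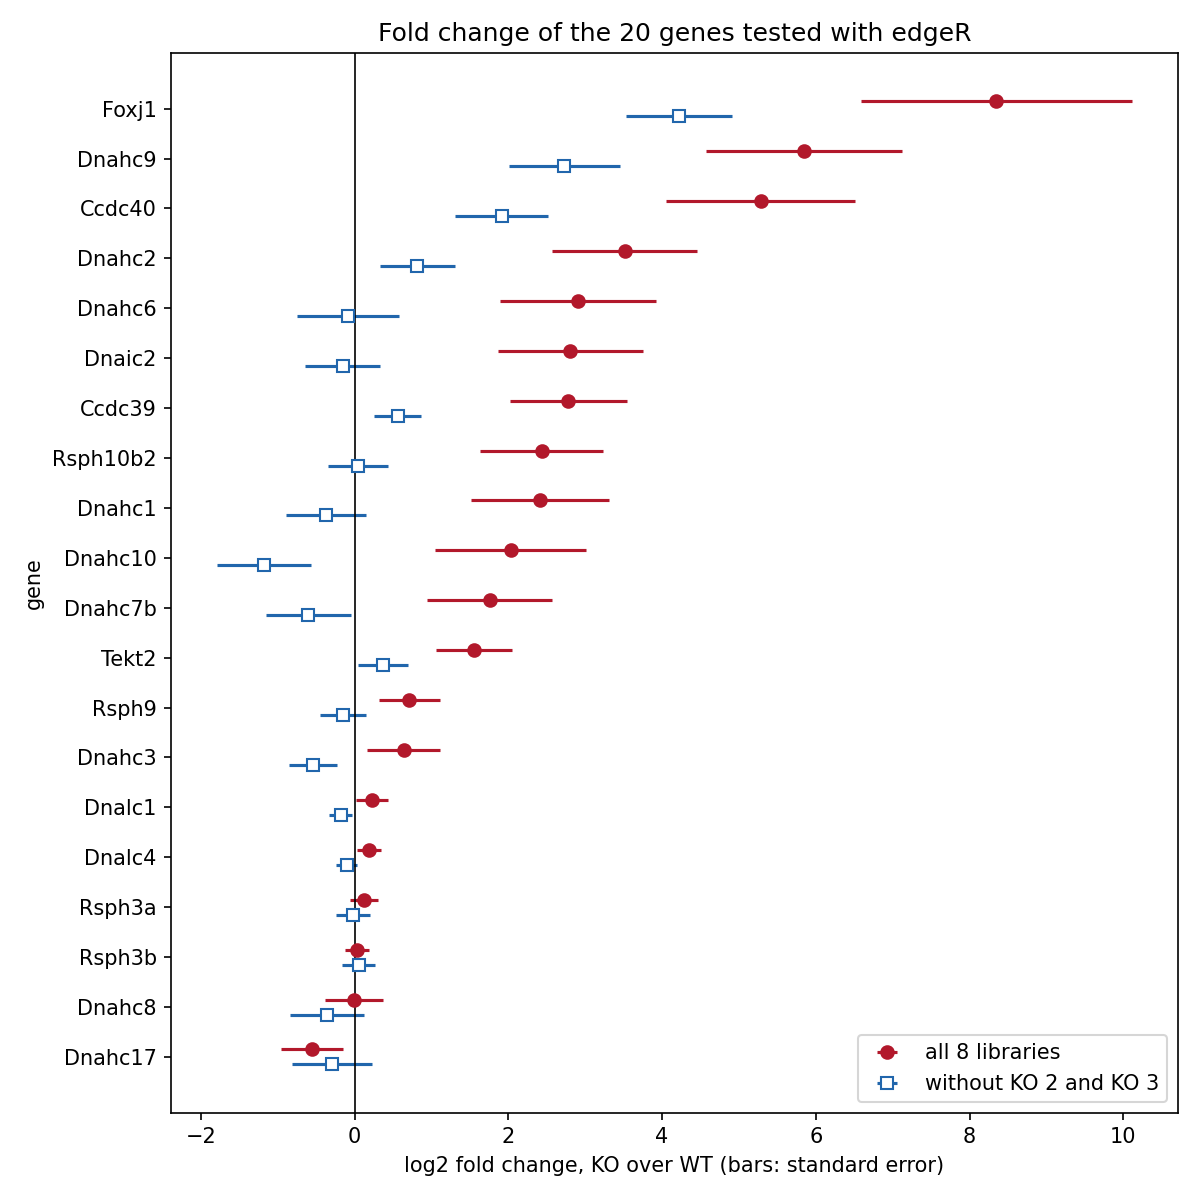
Log2 fold change, KO over WT, of the 20 genes tested with edgeR, with all 8 libraries (filled circles) and without KO 2 and KO 3 (open squares), and bars for the standard error. With all libraries 18 lie above zero, and without KO 2 and KO 3 only 8 do, led by Foxj1 at 4.22.

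Across genotypes, edgeR's quasi-likelihood test called 0 of the 20 tested genes higher in KO and 0 lower, where it called 0.277% of all 14800 genes higher (0.405% in either direction). At an unadjusted p under 0.05 it placed 10 of the 20 higher and 0 lower, against 8.52% higher among all genes. The median log2 fold change of the 20 was 1.89, and that of all genes tested was -0.01. The other 13 genes fell below the filter on low counts, which asks for enough reads in 4 libraries and so drops a gene seen only in 2 libraries. Foxj1, Ccdc40, Dnahc1, Dnahc2, Dnahc6, Dnahc9 and Dnaic2, all among the 10, passed it only with their KO libraries counted. The 10 of 20 is therefore not separate support. With no filter, 0 of all 33 were called, 21 had an unadjusted p under 0.05 with higher values in KO (8.66% of all genes did), and 0.142% of all genes were called higher. The median over the 33 was 2.79, where that of all genes was 0.0060.

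DESeq2 called 17 of the 30 genes to which it gave an adjusted p higher in KO (56.7%), and 5.07% of all genes, while limma-voom called 0. Without KO 2 and KO 3, edgeR called 0 of 20 (0.0197% of all genes were called higher), 3 had an unadjusted p under 0.05 (Foxj1, Ccdc40 and Dnahc9, all higher, where 4.9% of all genes did so), and the median was -0.10. Those 3 passed the filter there only with KO 1 and KO 4 counted. DESeq2 without KO 2 and KO 3 called 1, Foxj1, and 0.872% of all genes higher. Leaving out KO 1 alone let edgeR call 10 of 28 tested genes higher, where 1.66% of all genes were. Several of the 28, such as Dnahc5, Dnahc11 and Rsph4a, with 3, 3 and 4 WT reads, passed the filter there only with KO libraries counted. The 10 of 28 is therefore not separate support.

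In 7 of the 33 genes (21.2%) every KO library was above every WT library, which held for 3.92% of all genes with a read. KO 2, KO 3 and KO 4 were above every WT library in 14, against 7.39% of all genes. The 7 were Foxj1, Ccdc40, Dnahc2, Dnahc5, Dnahc9, Dnali1 and Rsph4a. The count was also 7 with KO 1 and KO 4 as the only KO libraries, where the share of all genes was not computed. Among the 20 tested genes, every KO library was above every WT library in 4 (Foxj1, Ccdc40, Dnahc2 and Dnahc9), against 4.32% of all genes tested. These 4 passed the filter on low counts only with their KO libraries counted, so this count is not separate support. KO 1, the lowest KO library in the 7 genes apart from Dnahc2, stood at 1.15 CPM against 0.258 CPM in the highest WT library for Foxj1, and at 0.462 CPM against 0.176 CPM for Dnahc5.

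Other parts of the motile cilium, from a list of 70 symbols of which 66 were in the table, showed the same libraries high. The summed level was 155, 839, 897 and 204 CPM in KO libraries 1 to 4, against 163, 154, 154 and 166 CPM in WT libraries 1 to 4. EdgeR called 0 of the 33 that passed the filter, with 21 at an unadjusted p under 0.05 and higher in KO, where 8.52% of all genes were. Several of the 21, such as Ccdc108 with 2 reads over the WT libraries, passed the filter only with their KO libraries counted. That count is therefore not separate support. DESeq2 called 44 of 65 higher, against 5.07% of all genes. Without KO 2 and KO 3 edgeR called 0 and DESeq2 called 1, against 0.0197% and 0.872% of all genes. All 4 WT libraries were exceeded by KO 1 in 20 of the 66, by KO 2 in 64, by KO 3 in 63 and by KO 4 in 44. Over all genes with a read, the shares were 17.6%, 25.9%, 26.1% and 21.6%. Ccdc108, a central pair protein, had 0.770, 66.8, 74.2 and 4.18 CPM in KO, against 0.0860, 0.0588, 0 and 0 CPM in WT. Tppp3, Heatr2 and Spef1, the others among its 4 most abundant genes, were detected in every WT library, at 8.38 to 29.7 CPM.

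A list of 44 genes of cytoplasmic dynein, intraflagellar transport and the immotile primary cilium had a nearly even sum across libraries. They summed to 1998, 2167, 2119 and 2153 CPM in KO and 1901, 2093, 2147 and 2186 CPM in WT libraries, a sum carried by abundant cytoplasmic dynein genes such as Dync1h1, at 304 to 341 CPM in KO and 355 to 475 CPM in WT. Gene by gene, KO 2 was above all 4 WT libraries in 23 of the 44 and KO 3 in 25, against 6 for KO 1 and 12 for KO 4. Over all genes with a read, the shares were 25.9%, 26.1%, 17.6% and 21.6% in the same order. Ift88, an intraflagellar transport gene, had 11.7, 21.6, 22.8 and 11.1 CPM in KO, against 13.8, 12.3, 13.4 and 12.4 CPM in WT. The median log2 fold change was 0.13, and -0.06 without KO 2 and KO 3. DESeq2 called 1 of the 44, Dync1h1, lower, and 1207 of 17384 genes over the whole table in either direction. EdgeR called 0 of the 44, with 5 at an unadjusted p under 0.05. Of the 5, 4 were higher in KO, where 8.52% of all genes were.

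Most markers of duct epithelium were high in the same libraries. The 13 markers of duct epithelium outside the cilia summed to 42.7, 348, 362 and 40.5 CPM in KO, against 14.96, 29.4, 8.61 and 19.97 CPM in WT libraries. Of the 13, KO libraries 1 to 4 were above all 4 WT libraries in 9, 12, 12 and 9. Over all genes with a read, the shares were 17.6%, 25.9%, 26.1% and 21.6%. Krt7 in KO 2, at 8.22 CPM, and Cubn in KO 3, at 0.749 CPM, lay inside the WT range. Epcam, an epithelial adhesion protein, had 2.15, 41.3, 42.6 and 4.998 CPM in KO, against 0.860, 0.823, 0.410 and 0.327 CPM in WT. Pax8, a transcription factor of genital duct epithelium, had 0.308, 25.6, 29.6 and 2.16 CPM in KO, against 0.0860, 0, 0.164 and 0.131 CPM in WT. Relative to its excess over the WT mean in KO 2, the duct sum stood at 104% in KO 3, 6.74% in KO 4 and 7.42% in KO 1, where the axoneme sum stood at 110%, 3.19% and -1.53%. The axoneme sum includes Dnalc1 and Dnalc4, which made up 49.0% to 53.8% of it in WT libraries. In 14 axoneme genes with a WT mean under 1 CPM and a KO 2 excess of at least 5 CPM, the medians were 105%, 5.07% and 1.09%. KO 1 ranged there from -3.98% to 4.17%.

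The 16 secretory markers of the epididymis summed to 6.39, 32.1, 74.6 and 4.52 CPM in KO, against 1.89, 1.12, 3.20 and 2.88 CPM in WT libraries, and Lcn9 and Adam28 were at 0 in all 8. Ptgds alone had 28.5 CPM in KO 2 and 29.8 CPM in KO 3, against at most 2.42 CPM in WT libraries. Crisp1 had 1.04 CPM in KO 2 and 36.2 CPM in KO 3, against 2.46 CPM in WT 3. Adam7 had 4.00, 0.741, 6.88 and 0.0481 CPM in KO libraries 1 to 4, and at most 0.0820 CPM in WT. Of the 16, KO libraries 1 to 4 were above all 4 WT libraries in 5, 10, 8 and 2, against 17.6%, 25.9%, 26.1% and 21.6% of all genes with a read. Male germ cell markers (14) were at 65.0, 94.8, 77.4 and 65.3 CPM in KO and 83.8, 64.7, 68.1 and 64.2 CPM in WT, most of it Odf2, which was at 58.3 to 68.7 CPM in every library, and KO 2 was above all 4 WT libraries in 12 of the 14 and KO 3 in 3. Prm2, a sperm protamine, was at 0, 6.89, 1.57 and 1.11 CPM in KO and 3.53, 0, 0.246 and 0 CPM in WT. Mesothelium markers (8) summed to 234, 217, 422 and 136 CPM in KO and 191, 310, 83.4 and 239 CPM in WT, with KO 3 above all 4 WT libraries in 8 of 8 genes and KO 2 in 1. Over all genes with a read, KO 2 was above all 4 WT libraries in 25.9% and KO 3 in 26.1%. The 4 airway markers summed to 0.0770 to 0.593 CPM in KO and 0.176 to 0.458 CPM in WT, with Scgb3a2 and Bpifa1 at 0 in all 8. The part of these cell types in the axoneme values was not tested, and in bulk RNA more ciliated cells and more RNA per ciliated cell cannot be told apart.

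**Figure D4:**
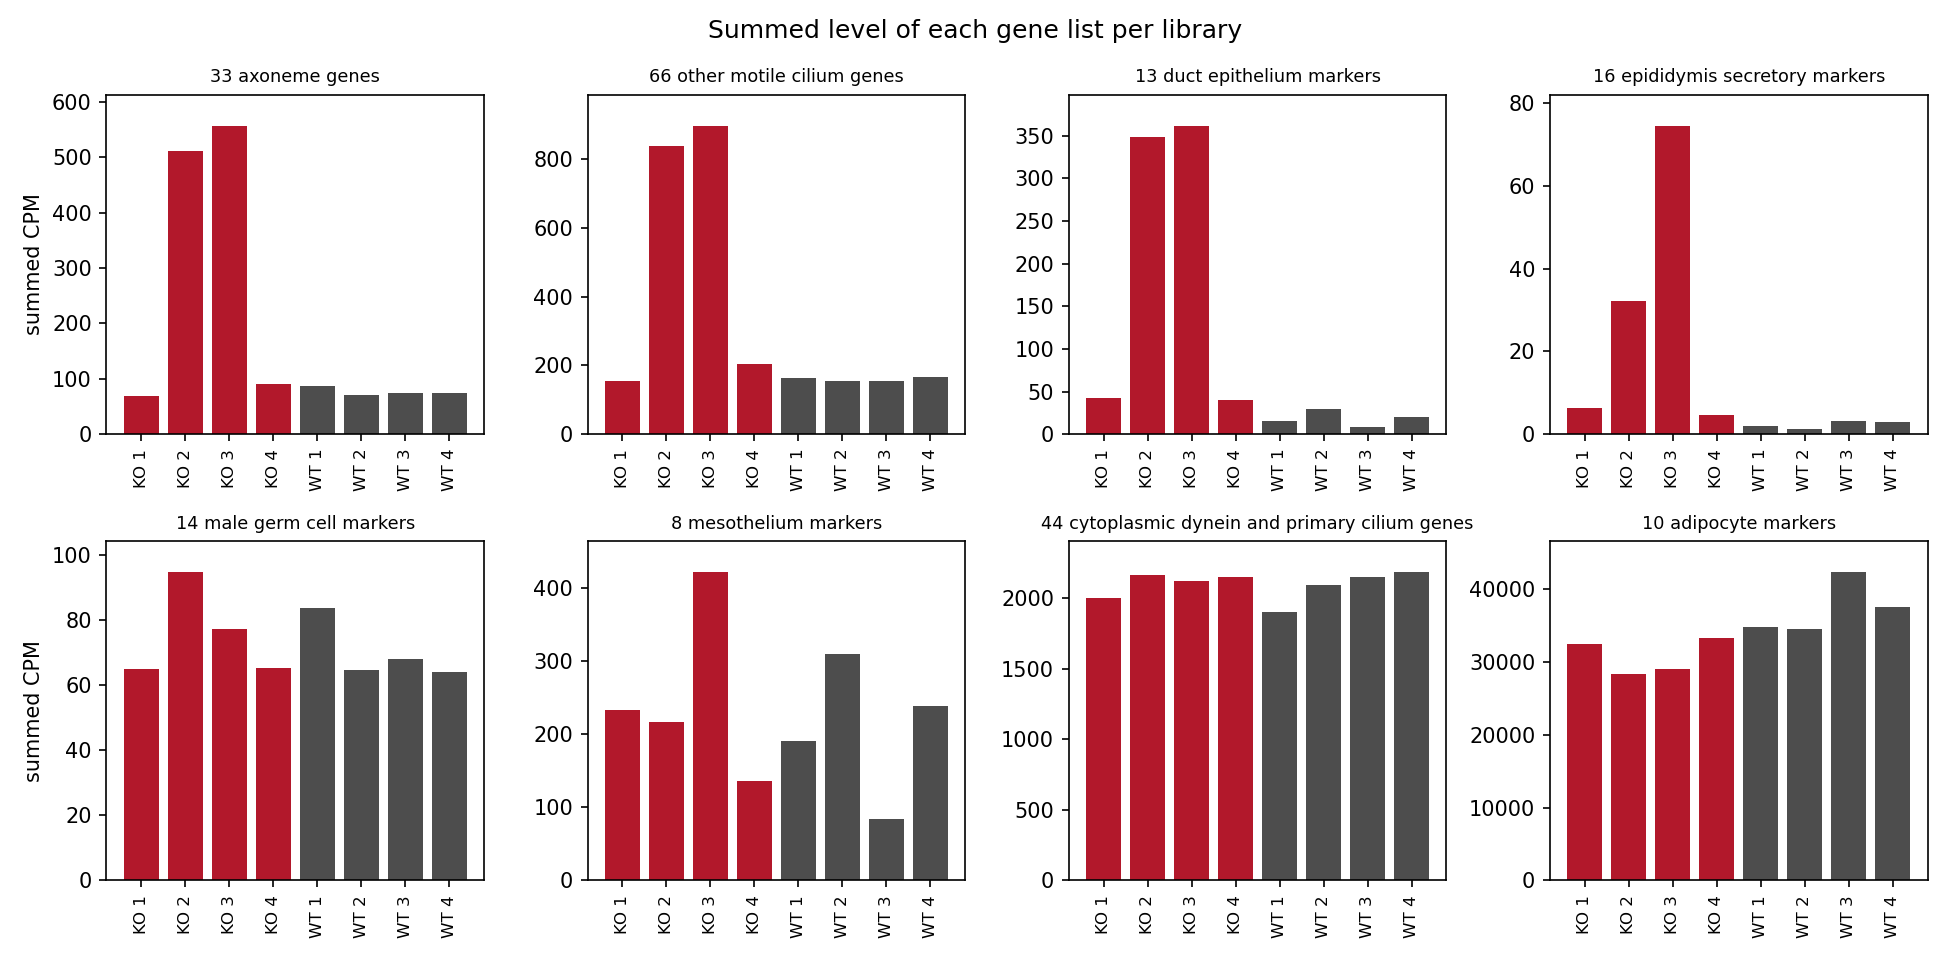
Summed CPM of 8 gene lists in each library, KO (red) left of WT (grey), each panel from 0 on its own scale. The 33 axoneme genes, the other motile cilium genes and the duct epithelium markers peak in KO 2 and KO 3, while the sum of the cytoplasmic dynein and primary cilium genes lies between 1901 and 2186 CPM in every library.

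The 33 genes also shared features that their names did not fix. They lay on 13 chromosomes, with 8 (24.2%) on chromosome 11, which holds 7.71% of protein-coding rows, and 6 on chromosome 17, which holds 4.89%. Their median exonic length was 3650 bases, against 2891 bases for all protein-coding rows. Longer genes had lower FPKM, with a Spearman rho over the 33 genes of -0.50 in KO 2 and -0.48 in KO 3, against -0.22 in WT 1 and -0.18 in WT 2, given as a description only. No source used here says whether reads were counted by strand, so the values of Ccdc39, Dnahc2, Dnahc3, Dnahc8, Dnahc9, Dnahc11, Dnahc17, Dnaic1, Dnalc1, Dnali1, Rsph3a, Rsph9, Rsph10b2 and Tekt2, each of which overlaps a gene on the other strand, could include reads of that gene.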

How the data were processed

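Polyadenylated RNA of 8 libraries was sequenced as stranded, single 50-cycle reads, per the labels' protocols. Per the submitters' processing notes, Novoalign 2.8.1, Picard and build mm10 were used. The counting program and annotation are not stated there. The authors deposited raw read counts per gene and library, and FPKM values, which per the file headers sit beside them. Of 158499 FPKM values above 0, 158499 equalled count divided by exonic length and library total, on the FPKM scale, within 0.1%.

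The 8 libraries were compared with edgeR 4.0.16 in R 4.3.3 (TMM, filterByExpr with minimum count 10, quasi-likelihood F test), over all 14800 genes that passed, with Benjamini-Hochberg adjustment and a threshold of 0.05. Alternatives were other scalings and filters, robust edgeR, a replicate block, DESeq2 1.42.0, limma-voom (limma 3.58.1), and leaving libraries out. The script was tested on simulated counts. P-values measure the spread between these mice. All 33 genes are named. Values in every library are given for Foxj1, Ccdc39, Ccdc40 and the 3 of each class with the highest mean FPKM; Dnahc8, Dnahc17, Rsph4a, Rsph10b2, Tekt3 and Tekt5, the Epcam, Pax8 and Ift88 examples and 3 of the 4 printed promoters were added after values were seen. Members and gene lists were chosen with earlier results of these data known.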

Additional observations from a re-analysis of the deposited data

Results flagged for a closer look

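Of 104 groups of 4 libraries examined for a single library far from the other 3, 8 were picked out. No chance rate was computed for counts this low, where reads in 1 library alone are enough to be picked out. Most rest on 1 to 3 reads. Dnahc5 was at 0.176 CPM in WT 2 and at 0 in the other WT libraries. Rsph6a was at 0.0481 CPM in KO 4 and at 0.0860 CPM in WT 1, each from 1 read, and at 0 elsewhere. Dnahc14 was at 0.0681 CPM in KO 3 and at 0.0655 CPM in WT 4, also from 1 read each. Tekt5 was at 0.0860 CPM in WT 1 and at 0 in the other WT libraries. Dnahc8, with more reads, was at 3.44 CPM in WT 1, above the other WT libraries. The sum over the 33 axoneme genes was 87.2 CPM in WT 1, above the other WT libraries at 71.4 to 73.4 CPM.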

How the results depend on the processing

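The axoneme genes called higher in KO numbered 0 in edgeR under other scalings and filters, in robust edgeR and in limma-voom, against 17 in DESeq2, 1 in DESeq2 without KO 2 and KO 3, and 0 to 10 when single libraries were left out, the 10 being without KO 1. For the other motile cilium genes the count was 44 in DESeq2, 1 in DESeq2 without KO 2 and KO 3, and 0 to 18 with single libraries left out, the 18 again without KO 1. Over the whole table edgeR called 60 genes, DESeq2 1207, edgeR without KO 2 and KO 3 called 3 and DESeq2 without them 219, with 0 (without KO 2) to 290 (without KO 1) when single libraries were left out, and under 60 by more than 1.5 times also without KO 3 or any of the WT libraries. The median log2 fold change of the axoneme genes tested was 1.21 to 3.16 with single libraries left out, -0.10 in edgeR without KO 2 and KO 3 and 0.054 in DESeq2 without them. Genes with every KO library above every WT library numbered 7 to 14 with single libraries left out, the 14 being without KO 1. Without KO 2 and KO 3, 10 genes turned below zero in log2 fold change (edgeR, then DESeq2): Dnahc1 (-0.37, -0.36), Dnahc10 (-1.18, -1.19), Dnahc3 (-0.54, -0.54), Dnahc6 (-0.087, -0.10), Dnahc7b (-0.60, -0.63), Dnaic2 (-0.15, -0.17), Dnalc1 (-0.18, -0.18), Dnalc4 (-0.10, -0.10), Rsph3a (-0.022, -0.014) and Rsph9 (-0.14, -0.15). Dnahc8 and Rsph3b, near zero, changed sign without KO 4 (0.20 and -0.012) and without WT 1, and ranged over -0.16 to 0.37 and -0.042 to 0.078 with single libraries left out. For the changes between tools, the cause was not tested. Alternatives that leave out KO 2 and KO 3 in DESeq2, and those on counts of genes above WT, were added after seeing the data.

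Whether replicate numbers pair the mice could not be settled from the values. Deviations of same-numbered libraries correlated at 0.184, -0.106, -0.254 and 0.0577, and only KO 1 correlated best with its own number. Weak correlations cannot exclude a pairing. With the number as a block, edgeR called 14 genes over the table, 1 axoneme gene (Foxj1, adjusted p 0.0444) and 1 other motile cilium gene, and Dnahc8 stood at a log2 fold change of 0.022. Depth limits the genes with few WT reads, where 3 reads are 0.176 to 0.258 CPM in WT libraries.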
